A study of Saccharomyces cerevisiae with 2 samples.

Results

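The mRNAs of the large ribosomal subunit proteins were examined in the CRAC data of Sni445, as every protein-coding feature named RPL followed by a digit in either library. This gave 76 genes of 2224 listed protein-coding features and 5758 features in all, and these are the 76 genes so named in the R64 yeast genome. They form 43 families, 33 of them pairs of an A and a B gene and 10 of them single genes, and 52 of the 76 genes have an intron. The stalk proteins, which carry RPP names, are not among them. CRAC crosslinks proteins to bound RNA by UV irradiation of living cells and sequences, as cDNA, the RNA fragments that stay on a tagged protein through its purification. There was 1 library of strain BY4741 MATa SNI445-HTP::klURA3, in which the chromosomal SNI445 gene carries a C-terminal His6-TEV-protein A tag (HTP), and 1 of the untagged parent BY4741 (MATa his3 leu2 met15 ura3). Both cultures grew in YNB medium with glucose and without tryptophan before the UV light was applied. Both libraries are labelled with an optical density of 0.6, 100 s of crosslinking and 16 PCR cycles. With 1 library per strain there is no replicate check and no test, and the 95% intervals below hold only the error of counting, as PCR copies of a molecule are not independent.

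Ribosomal protein genes are among the most strongly transcribed genes of growing yeast. Most of them exist as a pair of near-identical paralogs that remain from a whole-genome duplication, and their introns make up a large part of all yeast introns. RPL7A and RPL7B also carry a snoRNA within an intron, which is released from the spliced-out RNA. Sni445 is a nucleolar protein of the snR4 and snR45 snoRNPs, which guide rRNA acetylation by Kre33, and those snoRNAs take most of the counts of its library. A read on an mRNA is therefore a small part of that library, and its share falls when a few other RNAs fill the total.

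The sequences below, of the R64 reference from RefSeq, show how close paralogs differ and which snoRNAs lie in introns. The counts give no positions, so where the reads lie on these genes is not known. RPL41A (chromosome IV, 130407 to 130484, minus strand) and RPL41B (chromosome IV, 221724 to 221801, minus strand) encode the smallest protein of the subunit and are shown whole, since 1 base of the 78 differs. RPL2A (chromosome VI, 220507 to 221418, minus strand) and RPL2B (chromosome IX, 316768 to 317932, plus strand) have the most reads with Sni445-HTP and are shown from coding base 124 to 243, with 4 of their 28 differences. RPL13A (chromosome IV, 308424 to 309388, plus strand) and RPL13B (chromosome XIII, 550206 to 551207, minus strand) divide their reads most differently in the libraries and are shown from coding base 152 to 271, with 9 of their 43 differences. Capitals mark the bases that differ between the genes of a pair.
RPL41A: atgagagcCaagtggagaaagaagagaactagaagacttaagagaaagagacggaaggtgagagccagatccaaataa
RPL41B: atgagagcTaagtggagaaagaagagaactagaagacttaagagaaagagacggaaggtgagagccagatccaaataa
RPL2A: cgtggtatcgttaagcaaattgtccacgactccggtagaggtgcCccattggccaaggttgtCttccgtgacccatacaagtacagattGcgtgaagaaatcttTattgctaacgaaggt
RPL2B: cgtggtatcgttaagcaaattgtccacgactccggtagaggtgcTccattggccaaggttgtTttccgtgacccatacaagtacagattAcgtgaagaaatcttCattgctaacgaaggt
RPL13A: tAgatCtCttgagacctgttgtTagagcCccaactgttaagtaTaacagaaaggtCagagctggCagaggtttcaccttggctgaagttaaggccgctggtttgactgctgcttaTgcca
RPL13B: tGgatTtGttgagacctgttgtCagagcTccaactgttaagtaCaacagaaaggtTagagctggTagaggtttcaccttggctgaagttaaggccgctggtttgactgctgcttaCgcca

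The intronic snoRNAs are shown with the C box (TGATGA) and the D box (CTGA) in capitals, the motifs that bind the core proteins of box C/D snoRNPs. SNR39 is 89 nt long (chromosome VII, 365163 to 365251, minus strand) and lies in intron 2 of the 2 introns of RPL7A (364965 to 365432, 468 nt). SNR59 is 78 nt long (chromosome XVI, 173827 to 173904, plus strand) and lies in intron 2 of the 2 introns of RPL7B (173666 to 174072, 407 nt).
SNR39: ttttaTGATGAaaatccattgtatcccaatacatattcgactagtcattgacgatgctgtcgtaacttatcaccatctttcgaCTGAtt
SNR59: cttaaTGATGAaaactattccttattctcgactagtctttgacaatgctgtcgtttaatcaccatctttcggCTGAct

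All 76 RPL genes had at least 1 sense read with Sni445-HTP and 47 had one in the control. Of the 6021 R64 protein-coding genes, 28.8% had a read with Sni445-HTP, against 8.42% in the control. The depth was 21867727 mapped reads, or 26984818 sense counts, with Sni445-HTP, and 12654405 mapped reads, or 22960662 sense counts, in the control. The 29 RPL genes without a control read held 3165 reads with Sni445-HTP, between 3 and 1401 each with a median of 26. For a single gene, a control count of 0 allows up to 0.161 reads in every 1000000 sense counts by the exact interval, and the floor of 3 counts is 0.131.

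The libraries differed in how RPL reads were spread. The RPL genes had 4702 reads on 810 distinct cDNAs with Sni445-HTP, against 122035 reads on 2138 cDNAs in the control, so that a cDNA was read 5.80 times with Sni445-HTP and 57.1 times in the control. Over the genes detected, the median was 3.0 reads per cDNA with Sni445-HTP, where RPL2B was highest at 35.0, and 35.0 in the control, where the 1067 reads of RPL19B came from 1 cDNA. Without RPL2A and RPL2B, the RPL genes together had 3.22 reads per cDNA with Sni445-HTP. Other protein-coding features had 2.98 and 33.3 reads per cDNA, outside the rDNA and without those that overlap a non-coding RNA gene. A gene detected had a median of 26.5 reads and 9.0 cDNAs with Sni445-HTP, and of 1156 reads and 27.0 cDNAs in the control. The 10 highest genes held 64.2% of the RPL reads and 32.3% of the RPL cDNAs with Sni445-HTP, and 62.9% and 60.2% in the control. Antisense reads were 3 with Sni445-HTP, against 0 in the control.

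**Figure D1:**
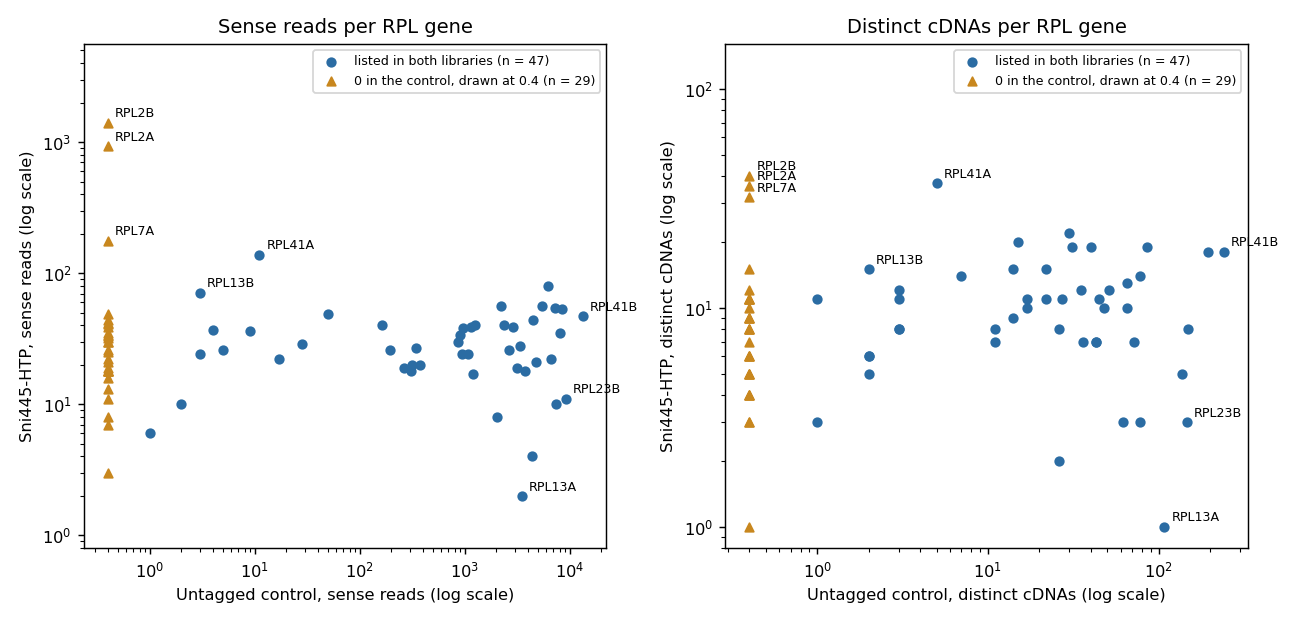
Sense reads (left) and distinct cDNAs (right) of each RPL gene in the control (x axis) and with Sni445-HTP (y axis), on log axes. Each point is 1 gene in 1 library per strain, and triangles are the 29 genes at 0 in the control, drawn at 0.4. Most genes lie between 2 and 80 reads with Sni445-HTP whatever their control count, and RPL2A, RPL2B, RPL7A and RPL41A stand above them.

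As a share of all sense counts, the RPL reads made up 0.0174% (0.0169 to 0.0179) with Sni445-HTP, against 0.531% (0.529 to 0.534) in the control, a ratio of 0.0328 (0.0318 to 0.0338). In distinct cDNAs of the features without antisense reads in either library, with every RPL gene kept, the share was 0.423% (0.394 to 0.453) with Sni445-HTP, against 0.433% (0.415 to 0.452) in the control. That ratio was 0.976 (0.899 to 1.06), a difference within the counting error. Over the cDNAs of all features it was 0.945 (0.870 to 1.02). The RPL genes were thus scarcer with Sni445-HTP in reads, and their share was not distinguishable between the libraries in cDNAs.

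Among protein-coding features outside the rDNA, a scale on which snoRNA and rRNA reads do not enter the total, the RPL genes had 13.6% of the reads with Sni445-HTP (13.2 to 14.0), against 7.55% in the control (7.51 to 7.59). The ratio of 1.80 (1.75 to 1.85) rested on RPL2A and RPL2B, and without them it was 0.972 (0.933 to 1.01). Without those genes and without the 13 genes of the files that overlap a non-coding RNA gene, RPL7A and RPL7B among them, it was 0.748 (0.716 to 0.780). In cDNAs, the total held only features without antisense reads in either library, with every RPL gene kept. The RPL share of it was 11.0% (10.3 to 11.7) with Sni445-HTP, against 6.92% (6.64 to 7.21) in the control. That ratio was 1.58 (1.46 to 1.72). With the features that have antisense reads included, as in the reads, the cDNA shares were 7.67% and 4.96%, a ratio of 1.55 (1.43 to 1.68). Without those features, the cDNA ratio was 1.45 (1.33 to 1.58) when RPL2A and RPL2B were left out. It was 1.26 (1.16 to 1.37) without the genes that overlap a non-coding RNA gene. The mRNAs of small subunit proteins, RPS genes, had a read ratio of 4.43 and a cDNA ratio of 1.35 (1.24 to 1.48) on this scale. RPS7B alone held 6446 of their 8735 reads with Sni445-HTP, on 16 cDNAs, and RPS22B held 144 of their 645 cDNAs.

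**Figure D2:**
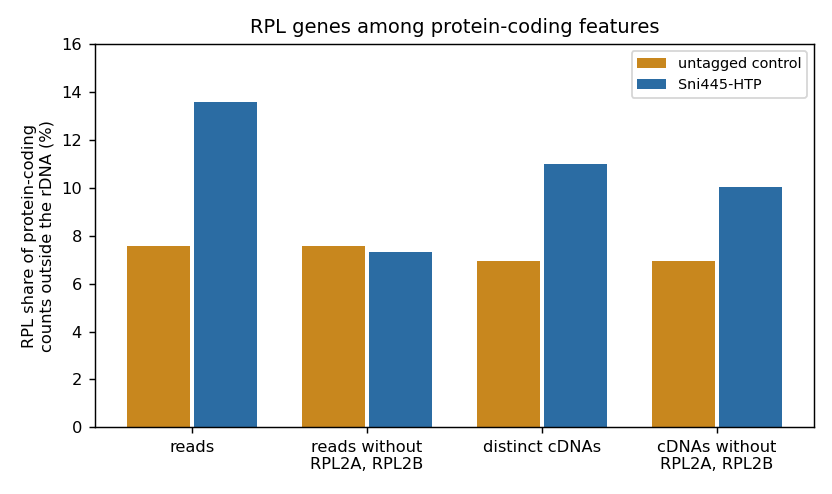
Share of the RPL genes in the counts of protein-coding features outside the rDNA, in reads and in distinct cDNAs, with and without RPL2A and RPL2B. The cDNA totals hold only features without antisense reads in either library, with the RPL genes kept, so they are not the totals used for reads. Bars start at 0, each is the value of 1 library, and no error is drawn. Without RPL2A and RPL2B, the read shares were 7.34% with Sni445-HTP, against 7.55% in the control, while the cDNA shares were 10.05% and 6.92%.

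Single genes were called by a fixed rule of size, a share of all sense counts 4 or more times higher or lower than that of the control, with at least 100 reads in the library where it is larger. All 36 RPL genes with 100 control reads had a lower share with Sni445-HTP, as did 98.2% of all features and 99.8% of protein-coding features with 100 control reads, so the count is that of the background. It also depends on the scale, since 12 genes were lower with median-ratio scaling and 14 with TMM scaling, both set by features seen in the 2 libraries. The background share was not computed on those 2 scales. Of the 4 RPL genes with 100 reads with Sni445-HTP, all 4 had a higher share, RPL2A, RPL2B, RPL7A and RPL41A. The background was 21.2% of all features and 25.0% of protein-coding features, 8 of 32 with these 4 genes among them. If all reads of its intronic snoRNA are counted on RPL7A, 33 others remain, under the minimum of 100. In distinct cDNAs with a minimum of 10, 9 of 35 RPL genes were lower, where the background was 50.3% of protein-coding features, and 16 of 36 were higher, where it was 35.5%. Both counts in cDNAs are shares of few genes in 1 library per strain, and their difference from the background was not tested.

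The ratios of the 36 lower genes ran from 0.000485 to 0.208 with a median of 0.0112. Over the 369 other protein-coding features with 100 control reads, outside the rDNA and without those that overlap a non-coding RNA gene, the median was 0.00332, with a count of 0 set to the floor of 3. Of these, 108 (29.3%) had no read with Sni445-HTP, against 0 of the 36 RPL genes. Over all 76 genes, with a control count of 0 set to 3, the median ratio was 0.866, beside 0.851 over the 1850 other protein-coding features outside the rDNA with a sense read. The floor sets both values, since 3 reads with Sni445-HTP against the floor also give 0.851, so they do not compare the genes.

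RPL2A and RPL2B encode a protein next to the peptidyl transferase centre, where peptide bonds are made. RPL2A had 935 reads on 36 cDNAs with Sni445-HTP and RPL2B had 1401 reads on 40 cDNAs, and both had 0 in the control. Against the floor of 3 control counts, the read shares were 265 and 397 times higher, and the lower ends of the exact intervals, which bound them for counting error, were 215 and 323. In cDNAs, the values against a floor of 3 cDNAs were 30.9 and 34.3, with lower ends of 23.9 and 26.7. Together they held 2336 reads, 49.7% of all RPL reads with Sni445-HTP, and 9.38% of the RPL cDNAs. Of their reads, 2297 were within a limit of 30 on read length, and the remaining 39 reads lay on 12 cDNAs. The longest run of bases that the spliced coding sequence of RPL2A shares with a mature snoRNA was 9 nt with snR4 and 9 nt with snR45, and for RPL2B it was 8 and 7 nt. Over all RPL genes these runs were 6 to 11 nt with snR4 and 6 to 12 nt with snR45.

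RPL3 and RPL10 also encode proteins that reach towards the peptidyl transferase centre, and Rpl10 joins the subunit late, in the cytoplasm. RPL3 had 54 reads on 15 cDNAs with Sni445-HTP, against 7316 reads on 22 cDNAs in the control, a ratio of 0.00628 (0.00471 to 0.00820). RPL10 had 53 reads on 18 cDNAs and 8391 reads on 195 cDNAs, a ratio of 0.00537 (0.00402 to 0.00704). Their read counts were alike in both libraries, whereas the control cDNAs of RPL10 were many and those of RPL3 few. On the cDNA scale among mRNAs, the ratio was 2.85 (1.38 to 5.75) for RPL3 and 0.386 (0.224 to 0.626) for RPL10, opposite in direction.

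RPL5 and RPL11 encode the partners of 5S rRNA, which enter the particle together with it. RPL5 had 56 reads on 11 cDNAs with Sni445-HTP, against 5461 reads on 45 cDNAs in the control. RPL11A had 19 and 3154 reads, and RPL11B had 20 and 376 reads. The 3 genes had a cDNA ratio among mRNAs of 1.13 (0.714 to 1.72) together.

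RPL1 encodes the protein of the L1 stalk, which moves with tRNA leaving the ribosome, and RPL12 a protein at the base of the other stalk. RPL1A had 40 reads on 22 cDNAs with Sni445-HTP, against 1264 on 30 in the control, and RPL1B had 56 on 19 and 2196 on 31. With Sni445-HTP, RPL12A had 28 reads and RPL12B had 17, against 3394 and 1199 in the control. All 4 genes were lower in reads, as were 99.8% of protein-coding features with 100 control reads, and their joint cDNA ratio among mRNAs was 1.62 (1.17 to 2.22).

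The polypeptide exit tunnel and its opening are lined by the products of RPL4, RPL17, RPL19, RPL25, RPL26, RPL31, RPL35 and RPL39. These 14 genes had between 13 and 49 reads with Sni445-HTP, and 8 of them had a control read. RPL25, whose product is a docking site at the tunnel opening, had 22 reads on 8 cDNAs with Sni445-HTP, against 6627 on 148 in the control. RPL26B had 49 reads on 20 cDNAs and 50 on 15, a ratio of read shares of 0.834 (0.551 to 1.26), whereas the ratio of cDNA shares was 3.43 (1.67 to 7.21). The cDNA ratio among mRNAs was 1.94 (1.57 to 2.39) over the group, against 1.39 (1.24 to 1.55) over the 46 genes put in no group here. It was 2.10 (1.65 to 2.66) over RPL2A, RPL2B, RPL3 and RPL10, so a higher value was not particular to the tunnel genes. RPL2A and RPL2B held 76 of the 109 cDNAs of those 4 genes with Sni445-HTP and 0 of their 217 in the control. RPL10 lay below 1 at 0.386 (0.224 to 0.626), and the value without RPL2A and RPL2B was not computed. Within the tunnel group, RPL25 lay below 1 at 0.226 (0.0958 to 0.457).

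RPL28 encodes the protein in which changes give resistance to cycloheximide, and RPL42 a neighbouring protein at the tRNA exit site. RPL28 had 80 reads on 19 cDNAs with Sni445-HTP, against 6218 on 85 in the control. RPL42A had 19 reads against 265 in the control, and RPL42B had 20 against 312. RPL28 had the most reads with Sni445-HTP of the 71 genes other than RPL2A, RPL2B, RPL7A, RPL7B and RPL41A, which lay between 2 and 80 reads with a median of 26.

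RPL40A and RPL40B encode a ribosomal protein made as a fusion with ubiquitin. They had 42 reads on 15 cDNAs and 44 reads on 9 cDNAs with Sni445-HTP, against 0 in the control. RPL21A and RPL21B had similar read counts in both libraries, 22 and 17 for RPL21A and 29 and 28 for RPL21B. Their ratios of read shares were 1.10 (0.558 to 2.21) and 0.881 (0.506 to 1.54), within the counting error of 1. In cDNAs, RPL21A had 6 and 2 and RPL21B had 8 and 3, and the ratios of cDNA shares were 7.73 (1.38 to 78.3) and 6.87 (1.65 to 40.2). RPL6B had 38 reads on 14 cDNAs with Sni445-HTP, against 964 on 7 in the control, so it was lower in reads and higher in cDNAs.

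RPL7A had 177 reads on 32 cDNAs with Sni445-HTP and RPL7B had 49 on 11, and both had 0 in the control. The lower end of the exact interval of the ratio was 40.4 for RPL7A and 10.9 for RPL7B in reads, and 21.1 and 6.46 in cDNAs. RPL7B had too few reads for a call. The snoRNA in the RPL7A intron, SNR39, had 144 reads on 25 cDNAs with Sni445-HTP, or 81.4 for every 100 reads on RPL7A (74.8 to 86.8). SNR59 had 37 reads on 7 cDNAs, or 75.5 for every 100 on RPL7B (61.1 to 86.7), and neither snoRNA had a control read. Reads on several overlapping features are counted on each, so a read of the snoRNA is also a read of its host gene where the gene feature includes the intron. If all of them are, 33 reads on 7 cDNAs remain for RPL7A and 12 reads on 4 cDNAs for RPL7B, within the range of the other RPL genes. The counts give no positions, so the overlap itself was not tested. SNR39B, a separate snoRNA gene 377 nt upstream of RPL7A, had 0 control reads and 83 with Sni445-HTP.

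Both genes had a read in all 33 pairs with Sni445-HTP. In the control both had one in 17 pairs, 1 gene alone in 6 and neither in 10. With at least 10 reads in the pair, the gene with more reads held a median of 62.7% of the reads of its pair (50.7 to 97.3, 33 pairs) with Sni445-HTP, against of 99.9% (52.8 to 100, 23 pairs) in the control. In cDNAs, the medians were 62.5% over 29 pairs and 96.4% over 21. The leading gene held 95% or more of the reads in 1 pair with Sni445-HTP, RPL13, and in 14 pairs in the control.

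Of the 23 pairs with 10 reads in both libraries, 9 were led by a different gene in each, and in cDNAs 8 of 18, with 1 more pair tied. These were not all the same pairs. RPL13, RPL20, RPL23, RPL41 and RPL43 changed their leading gene in both counts, whereas RPL1 and RPL12, for example, changed it in cDNAs only. The intervals of the A gene's share did not overlap between the libraries in 18 of 23 pairs in reads and in 9 of 19 in cDNAs. These counts set 1 library against 1 library, and reads that match both genes were placed at random. The intervals in reads also treat PCR copies as independent. No such counts were made for paralog pairs of other genes, so they are not shown to be particular to RPL genes.

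RPL13 differed most. RPL13A had 2 reads on 1 cDNA with Sni445-HTP, against 3506 on 108 in the control, and RPL13B had 71 on 15 and 3 on 2. The A gene held 2.74% (0.334 to 9.55) of the pair's reads with Sni445-HTP, against 99.9% (99.8 to 100) in the control. RPL23, whose protein lies at the interface with the small subunit, also changed its leading gene. RPL23A had 37 reads on 11 cDNAs with Sni445-HTP, against 4 on 3 in the control, and RPL23B had 11 on 3 and 9182 on 146. Its A gene held 77.1% (62.7 to 88.0) with Sni445-HTP, against 0.0435% (0.0119 to 0.111) in the control.

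RPL41 changed its leading gene although the coding sequences printed above differ by 1 base. RPL41A had 138 reads on 37 cDNAs with Sni445-HTP, against 11 on 5 in the control, a ratio of 10.7 (5.78 to 21.9). RPL41B had 47 reads on 18 cDNAs and 13281 on 241, the highest control count of all RPL genes, a ratio of 0.00301 (0.00221 to 0.00401). The A gene held 74.6% (67.7 to 80.7) with Sni445-HTP, against 0.0828% (0.0413 to 0.148) in the control. Per kb of coding sequence, RPL41A was highest with Sni445-HTP at 474 cDNAs and RPL41B in the control at 3090. These 2 values divide by a coding length of 78 nt, and whether the gene features of the files reach beyond the coding sequence is not given in the sources used here.

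The other pairs led by a different gene in reads were RPL4, RPL11, RPL20, RPL27, RPL34 and RPL43. With Sni445-HTP, RPL20A had 18 reads and RPL20B had 10, against 0 and 7330 in the control. In the same order of libraries, RPL27A had 40 and 2351 reads, and RPL27B had 4 and 4333. RPL34A had 26 and 5 reads, and RPL34B had 8 and 2051. RPL43A had 35 and 8157 reads and RPL43B had 36 and 9, so the B gene led by 1 read with Sni445-HTP. The A share was 49.3% (37.2 to 61.4) there and 99.9% in the control. In RPL4 and RPL11 the A share was also close to even with Sni445-HTP, at 45.9% (34.3 to 57.9) and 48.7% (32.4 to 65.2), and at 84.7% and 89.3% in the control. In RPL4 and RPL11, and in RPL27, the cDNAs were led by the A gene in both libraries.

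Other pairs kept the same leading gene in reads. RPL9A, of a protein near the base of the stalk, had 21 and 4795 reads, with Sni445-HTP first, and RPL9B had 6 and 1. RPL8A had 24 and 3 reads, and RPL8B had 44 and 4515. RPL37A had 10 and 2 reads, and RPL37B had 18 and 3791. RPL42 was nearly even in both libraries, with an A share of 48.7% (32.4 to 65.2) with Sni445-HTP, against 45.9% (41.8 to 50.1) in the control. The A genes of RPL15, RPL17 and RPL22 held all control reads of their pairs, 951, 1156 and 857, while RPL15B, RPL17B and RPL22B had 7, 18 and 8 reads with Sni445-HTP.

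**Figure D3:**
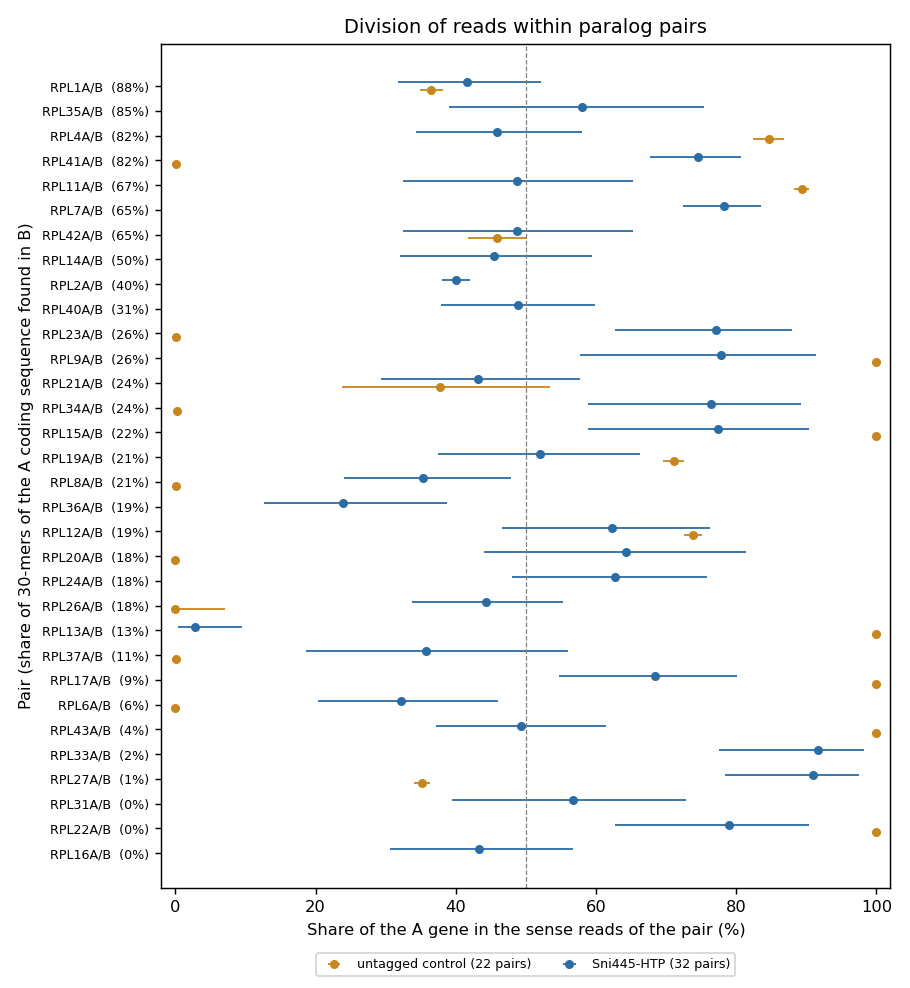
Share of the A gene in the sense reads of each pair with at least 10 reads, with exact 95% intervals for counting error, for 32 of the 33 pairs with Sni445-HTP and 22 of the 23 control pairs. Pairs are ordered by the percentage of 30-base windows of the A coding sequence that occur in the B gene, given beside each name, and the dashed line marks 50%. Control points lie mostly at either end, and Sni445-HTP points lie mostly between.

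The pairs differ in how much sequence they share. Of all 30-base windows of the A coding sequence, between 0 and 88.0% occurred in the B coding sequence, with a median of 21.1%. Over 50% were shared in 8 pairs, and identity was 89.4% to 99.4% in the 31 pairs of equal coding length. With Sni445-HTP, the leading gene held a median of 56.3% in the 8 pairs that share over 50% and of 64.3% in the 25 others. In the control, it held 84.7% in the 5 such pairs with 10 reads and 99.9% in the 18 others. The pairs with 10 reads are not the same ones in each library, and RPL27 went the other way, with a leading share of 90.9% with Sni445-HTP, against 64.8% in the control.

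Read length set the libraries apart as well. Within the limit of 30 lay 79.1% (77.9 to 80.2) of the RPL reads with Sni445-HTP, against 54.3% (54.0 to 54.5) in the control. For other protein-coding features outside the rDNA, here with those that overlap a non-coding RNA gene, the values were 63.8% and 36.7%. Without RPL2A and RPL2B the RPL value with Sni445-HTP was 60.1%. Gene by gene, the control was divided. Of its 40 genes with 10 reads, 15 had all reads within the limit, 7 had none, and 34 were over 95% or under 5%. With Sni445-HTP, 67 of 69 genes had reads on both sides of the limit and 4 were over 95% or under 5%. RPL13A, RPL15A and RPL18B had 0 of their control reads within the limit, and RPL3, RPL32 and RPL20B had all of them. These are shares of reads, PCR copies included, and cDNAs can differ from them in either direction. In the control, RPL23B had 80.4% of its reads but 40 of 146 cDNAs within the limit. RPL25 had 0.438% of its reads and 14 of 148 cDNAs. The share of all RPL cDNAs within the limit was not computed.

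**Figure D4:**
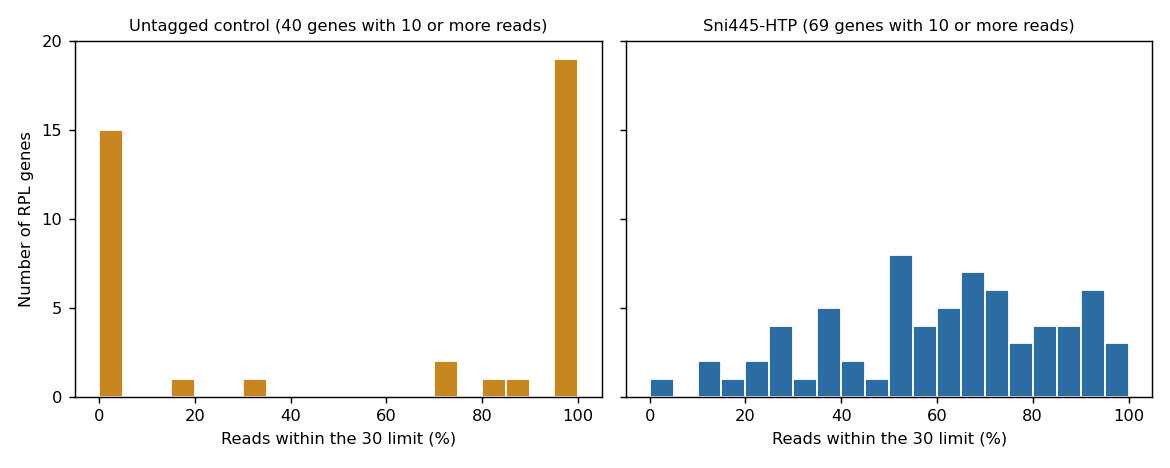
Number of RPL genes (y axis) by the percentage of their sense reads within the limit of 30 on read length (x axis, bins of 5%), for genes with at least 10 reads in the library. The 40 control genes lie mostly in the end bins, and the 69 genes with Sni445-HTP are spread between.

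Over the 32 genes with at least 5 cDNAs in both libraries, the cDNA ratio among mRNAs ran from 0.153 for RPL9A to 30.9 for RPL41A, with a median of 1.36. The interval lay below 1 for 5 genes, above 1 for 12 and across 1 for 15. With and without an intron, RPL genes had 22.2 and 21.2 cDNAs per kb of coding sequence with Sni445-HTP, and 46.9 and 74.9 in the control. The medians over genes were 19.6 and 17.8 with Sni445-HTP and 3.74 and 40.0 in the control, where 28 of 52 genes with an intron and 19 of 24 without one had a read.

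Of the other genes of the pathway, the 5 stalk proteins had 173 reads in the Sni445-HTP library and 9656 in the control. All 5 were seen with Sni445-HTP, against 3 in the control, with 2 of the 2 that had 100 control reads called lower. Their cDNA ratio among mRNAs was 3.55 (2.44 to 5.14). RPP2A held 27 of their 56 cDNAs with Sni445-HTP and 2 of 66 in the control, while RPP1B had 7 and 61. All 56 RPS genes were seen with Sni445-HTP, against 32 in the control, with 8735 and 92157 reads, all 25 with 100 control reads called lower, and RPS7B called higher. As above, 99.8% of protein-coding features with 100 control reads were lower. Of 6 regulators of ribosomal protein gene transcription (IFH1, FHL1, SFP1, RAP1, HMO1 and CRF1), 4 were seen with Sni445-HTP and 0 in the control. Their 23 reads with Sni445-HTP lay on 4 cDNAs. Of 7 chaperones and loaders of ribosomal proteins (RRB1, SQT1, SYO1, ACL4, BCP1, YAR1 and TSR2), 0 had a read with Sni445-HTP. In the control YAR1, whose product is a chaperone of a small subunit protein, had 2385 reads on 81 cDNAs. Over the R64 protein-coding genes, 28.8% had a read with Sni445-HTP and 8.42% in the control. Both lists are short, and their difference from these shares was not tested.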

How the data were processed

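The authors aligned reads with Novoalign 3.09.00, placing reads with several matching sites at random, after FastQC 0.12.1. They counted reads with pyReadCounters on the EF2.59 genome (Counters 1.4.4 by the file headers). The deposited values are counts per feature of sense reads, antisense reads and distinct cDNAs, under read length limits of 30 and 1000. The limit of 1000 was used unless stated. The way of collapsing reads into cDNAs is not given in the sources used here. R64 differs from EF2.59 and was used by gene name only, for places, coding sequences and introns.

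Shares with exact Clopper-Pearson intervals and ratios with exact conditional binomial intervals (95%) were computed in Python 3.11.15 with scipy 1.17.1. TMM scaling came from edgeR 4.0.16 in R 4.3.3. Features outside the rDNA exclude TAR1 and the ORFs listed within the rDNA repeat. Since cDNAs are not split by direction, cDNA totals hold features without antisense reads in either library, with every RPL gene kept; this total was changed after a first value was seen. The genes chosen for naming include the 10 with most reads in each library, genes called higher, the intronic hosts, and pairs and ratios by fixed minimums. Not every value of each is given, and for some, such as RPL20B and RPL43A, only reads or shares of reads are. The rule was tested on simulated counts of 5758 features, where 100% of 200 features changed 8-fold in either direction were found and 0 others called. Changed features were drawn among abundant ones only. Both simulated libraries were drawn from the proportions of the control with counting error alone, without PCR copies or the difference in composition of the real libraries. The simulation therefore does not show how often the rule calls unchanged features in these data.

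Members and lists were chosen with earlier results of these data known. The grouping by role, the 50% and 95% thresholds of pairs, the minimum of 5 cDNAs, the sequence windows and the shared runs were chosen after values were seen. The values of 1 gene, and the plotted points of its pair, are not reported here, though the gene is part of the counts and sums.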

Additional observations from a re-analysis of the deposited data

How the results depend on the processing

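No paired analysis was possible because there is 1 library per strain. The ratio of the RPL share of sense counts, 0.0328, was 0.0350 under the 30 limit, 0.976 in cDNAs (0.945 with the features that have antisense reads, added after seeing the data), 0.0223 over mapped reads, 0.0284 with antisense reads, 0.0255 without the most abundant gene of each library and 0.0165 without RPL2A and RPL2B. It turned to 1.44 over counts without rRNA, snoRNA and intergenic features, 1.33 with median-ratio scaling and 1.15 with TMM, which shift every log2 ratio by 5.46, 5.34 and 5.13. The ratio among mRNAs, 1.80, was 1.52 under the 30 limit, 1.58 in cDNAs (1.55 with those features), 1.33 with the rDNA ORFs kept, 1.45 without the most abundant gene and 1.44 without genes that overlap a non-coding RNA gene. By alternatives chosen after seeing the data, it was 0.972 without RPL2A and RPL2B and 0.748 without those and the overlapping genes, and in cDNAs 1.45 and 1.26 without each of these sets. The 36 genes called lower became 21 under the 30 limit, 9 in cDNAs, 12 and 12 under the first 2 scalings and 14 under TMM. The 4 called higher became 16 in cDNAs, 30 with a minimum of 10 reads and 1 with a minimum of 1000. With the lower minimum, many of the 29 genes without a control read enter, their control count set to 3. The background share was computed only for the main rule and for cDNAs, so the other counts have none beside them. The pairs led by a different gene fell from 9 of 23 to 5 of 14 under the 30 limit and 1 of 1 with a minimum of 100 reads. Without the most abundant gene, the share within the limit was 70.8% with Sni445-HTP and 58.9% in the control, and genes with at least 10 cDNAs had 6.79 reads per cDNA with Sni445-HTP.

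Ratios of single genes crossed 1 as follows, out of 37 genes (36 under the 30 limit). Under the 30 limit they were 2.91 for RPL15A, 1.45 for RPL18B, 1.80 for RPL22A, 9.03 for RPL28, 2.49 for RPL34B, 3.53 for RPL42A and 3.95 for RPL6B, where the control counts of RPL15A, RPL18B, RPL42A and RPL6B were 0 and set to the floor of 3. In cDNAs they were 1.64 for RPL11B, 1.66 for RPL12B, 1.29 for RPL17A, 1.05 for RPL19A, 28.3 for RPL19B, 1.89 for RPL1A, 1.58 for RPL1B, 1.76 for RPL3, 1.87 for RPL42A, 1.52 for RPL42B, 1.22 for RPL4A, 2.76 for RPL4B and 5.15 for RPL6B. Among these, the exact interval lay above 1 only for RPL19B (4.12 to 1220, from 1 control cDNA), RPL1A (1.04 to 3.39), RPL4B (1.24 to 6.17) and RPL6B (1.95 to 15.1). For the others it held 1. Over counts without rRNA, snoRNA and intergenic features, with median-ratio scaling and with TMM, in that order, they were 1.99, 1.84 and 1.58 for RPL11B, 1.26, 1.16 and 1.005 for RPL17A, 2.18, 2.01 and 1.74 for RPL18B, 1.31, 1.21 and 1.04 for RPL22A, 2.69, 2.47 and 2.14 for RPL42A, 2.40, 2.21 and 1.91 for RPL42B, 1.41, 1.30 and 1.12 for RPL4A, 9.14, 8.42 and 7.27 for RPL4B and 1.48, 1.36 and 1.17 for RPL6B. For RPL1A the first 2 were 1.19 and 1.09. The cause was not tested.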
